A study of Homo sapiens with 24 samples.

Results

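The 45 genes described here encode proteins of DNA replication: origin licensing, the replication fork, histone chaperones and nucleotide supply. They were chosen by symbol from the 26475 gene symbols of the count files, with earlier results of these data known, and all 45 were found and passed the filter on low counts in every comparison. They were measured by RNA sequencing in HepG2, an established cell line from a human liver tumour, in 24 libraries of 8 groups with 3 replicates each. The groups were cells given DMSO, the solvent control, cells given ABBV-075 at 50 nM, cells given ABBV-744 at 50 nM or at 500 nM, cells given interferon gamma (IFNg), and cells given IFNg together with each of these 3 inhibitor treatments. No genetic change is named for any group, so the groups differ by agent and dose alone as far as the labels say. ABBV-075 was given for 12 h, while no source used here clearly gives how long the other groups were treated or how much IFNg they got, so a difference in time between ABBV-075 and another group cannot be told apart from the treatment. The methods call the DMSO and ABBV-075 triplicates independent samples, and no source used here says this of the other groups, where a p-value may measure technical spread only.

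ABBV-075 is an inhibitor of the BET proteins, which bind acetylated histones through a pair of bromodomains and help RNA polymerase II to elongate. ABBV-744 is a BET inhibitor made to be selective for the second of these bromodomains. DNA replication starts when the origin recognition complex (ORC), CDC6 and CDT1 load the MCM2 to MCM7 ring onto DNA, a step called licensing that geminin (GMNN) blocks. CDC45 and the GINS complex turn the ring into the active helicase. DNA polymerase alpha with primase lays down primers, the RFC clamp loader sets the PCNA clamp, and polymerases delta and epsilon extend the strands, with FEN1 and LIG1 joining the lagging strand, TYMS and ribonucleotide reductase (RRM1, RRM2) supplying nucleotides, and the chaperones CAF-1 and ASF1 handing over histones. Many of these genes are transcribed at the end of G1 under E2F factors, and their mRNA levels are known to be high in dividing cells such as tumour lines.

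Since many of these genes are textbook E2F targets, their promoters were searched for E2F letters. The 250 bases before the start were read from RefSeq promoters (GRCh38.p14) for 39 of the 45 genes, with no entry for MCM4, MCM5, GINS4, POLD3, RPA2 and RPA3. One of the E2F forms TTTCCCGC, TTTGGCGC, TTTCGCGC or TTTGCCGC stood on either strand in 12 of the 39 promoters (30.8%), against 2.79% of all 27305 promoters of the same length. CCAAT stood in 23 of the 39 (59.0%, against 33.0% of all promoters) and TTTGAA, the core of the CHR element of late cell-cycle genes, in 2 of the 39 (5.13%, against 13.6%). No E2F form holds CCAAT or TTTGAA, and each motif was counted separately. The stretches around the match are shown for 8 genes whose changes are described further on, lower with an inhibitor in the first 3, higher in the next 3 and in opposite directions in the last 2, with the E2F letters in capitals.
GINS2 (chr16:85688958-85689005, minus strand): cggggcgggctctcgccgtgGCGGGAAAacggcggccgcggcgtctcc
MCM3 (chr6:52284889-52284936, minus strand): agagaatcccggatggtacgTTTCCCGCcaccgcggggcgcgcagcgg
TYMS (chr18:657594-657641, plus strand): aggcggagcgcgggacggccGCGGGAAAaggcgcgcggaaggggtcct
PCNA (chr20:5126654-5126701, minus strand): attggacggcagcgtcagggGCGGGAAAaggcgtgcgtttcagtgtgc
POLE (chr12:132687343-132687380, minus strand): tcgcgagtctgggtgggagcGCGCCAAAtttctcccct
POLA2 (chr11:65261889-65261936, plus strand): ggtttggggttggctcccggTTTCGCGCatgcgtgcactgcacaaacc
POLA1 (chrX:24693761-24693808, plus strand): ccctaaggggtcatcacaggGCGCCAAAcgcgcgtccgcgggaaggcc
RFC3 (chr13:33818074-33818121, plus strand): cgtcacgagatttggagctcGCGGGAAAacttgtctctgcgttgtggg
The same letters stood in front of genes that were lower and of genes that were higher with ABBV-075: of the called genes with an entry, 3 of 6 lower genes and 2 of 6 higher genes held them. A match describes these letters and is no evidence of binding.

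The libraries held 23037861 to 28925049 reads, of which 2978982 to 4304103 (11.95 to 16.78%) were counted on genes, and 56.0 to 69.4% mapped to several places and were left out. A replication gene had between 20 and 3069 counts in a library, with a median of 169, so the lowest genes carry the largest counting error. The hepatocyte markers summed to 21050 to 28072 CPM (read counts divided by the scaled total of the library and set to a common total). The leukocyte markers PTPRC, CD68 and CD14 summed to 7.99 to 27.2 CPM, with PTPRC at 0 in all libraries. The fibroblast markers summed to at most 0.634 CPM and the endothelial markers to at most 2.14 CPM. HEXIM1, known to rise with BET inhibition, averaged 53.7 CPM in the DMSO group (SD 3.14, n = 3), 145 ± 7.44 in the ABBV-075 group, 65.0 ± 4.13 with ABBV-744 at 50 nM and 89.3 ± 4.87 at 500 nM, and IRF1, an IFNg target, averaged 11.98 CPM with DMSO and 229 ± 21.4 with IFNg. HEXIM1 was called higher by edgeR with ABBV-075 (log2 fold change 1.41) and ABBV-744 at 500 nM (0.74), but not with ABBV-744 at 50 nM (0.29). Added to IFNg, ABBV-075 (1.51) and ABBV-744 at 500 nM (0.58) also had HEXIM1 called higher. With ABBV-744 at 50 nM added to IFNg HEXIM1 stood at 0.09 and was not called, and the cause was not tested. The share of multimapping reads differed between groups, at 66.2 to 69.4% with ABBV-744 at 50 nM and 57.5 to 59.6% with IFNg plus ABBV-744 at 50 nM. GC content did so too: across the genes tested in a library, the log2 deviation from the mean of all libraries had a Pearson correlation with the GC content of the transcript of 0.53 to 0.69 in the former group and -0.64 to -0.59 in the latter. The replicates of ABBV-075 were spread from -0.52 to 0.16 on this measure, and replicate 3 had the highest value of them. Each comparison was therefore also run with a correction for GC content, whose result is given beside it.

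With DMSO the levels of the replication genes spanned a wide range when set per kilobase of transcript. PCNA, the sliding clamp, was highest at 406 ± 8.79 CPM per kb (SD, n = 3), followed by TYMS, the thymidylate synthase, at 127 ± 4.81, RRM2, the small subunit of ribonucleotide reductase, at 99.3 ± 2.18, and POLD2, a subunit of polymerase delta, at 96.8 ± 3.07. RRM2 and POLD2 did not differ beyond their spread, since their ranges of mean ± SD overlap. The lowest genes were POLE, the catalytic subunit of polymerase epsilon, at 3.45 ± 0.328, and CHAF1B and CHAF1A, subunits of CAF-1, at 2.90 ± 0.269 and 2.44 ± 0.123. Subunits of one complex were far from equal at the level of mRNA: in the MCM ring MCM4 stood at 85.8 ± 3.45 CPM per kb, MCM2 at 48.1 ± 1.49, MCM3 at 46.0 ± 3.62, MCM5 at 42.2 ± 0.786, MCM7 at 30.6 ± 4.69 and MCM6 at 7.99 ± 0.753. MCM2, MCM3 and MCM5 lay close together, while MCM4 stood above and MCM6 below the others.

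**Figure D1:**
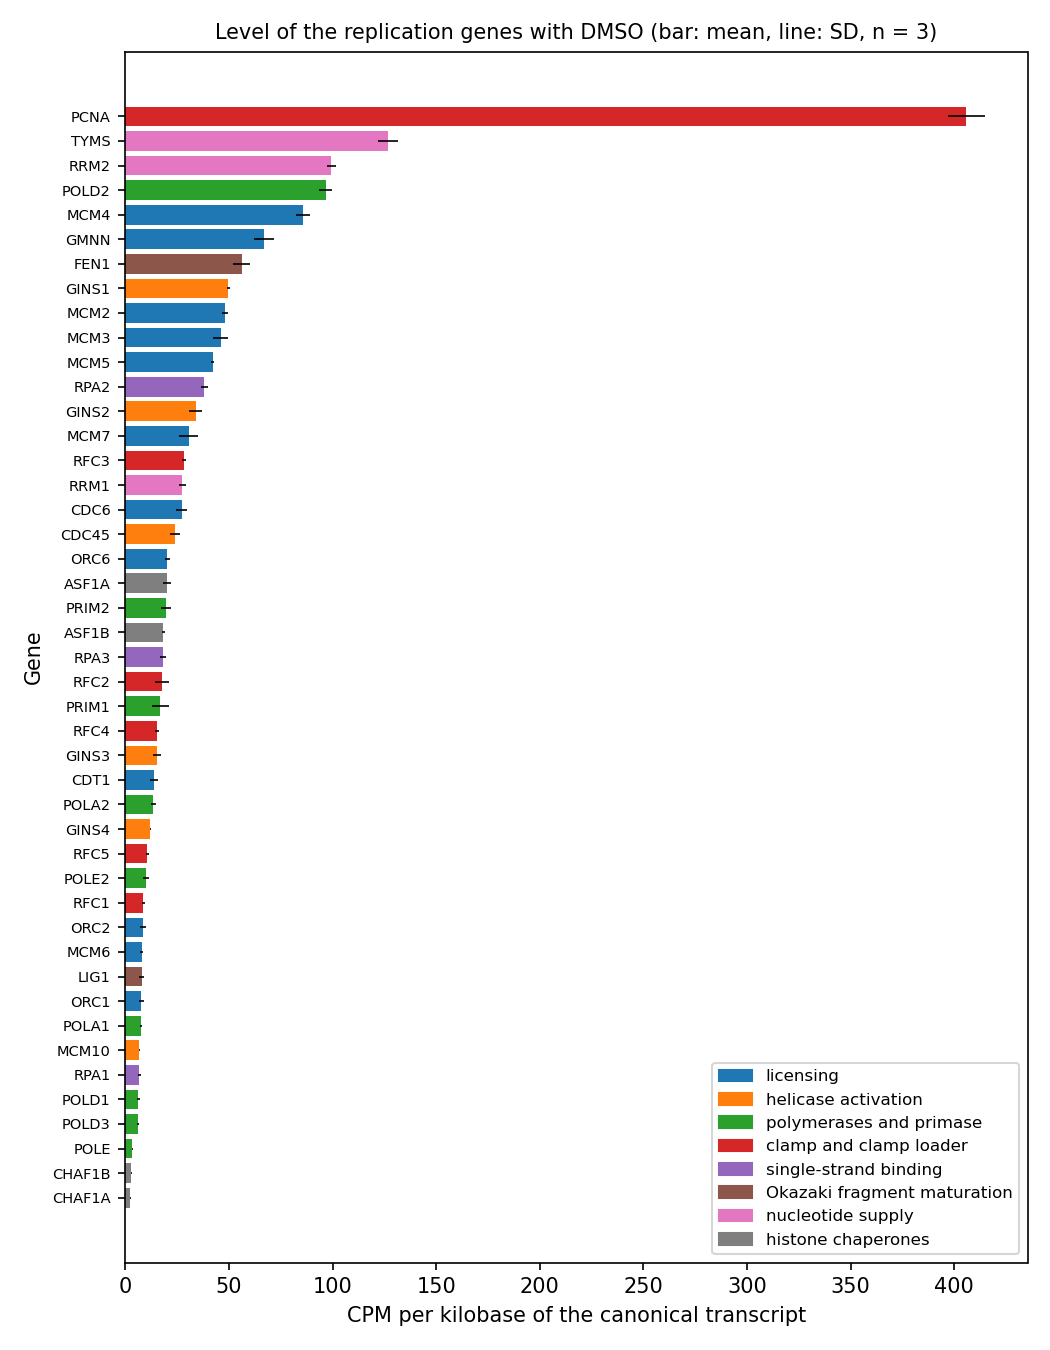
Level of the 45 replication genes in the DMSO libraries, in CPM per kilobase of the canonical transcript, as the mean (bar) and SD (line) of 3 replicates, coloured by role in replication. PCNA stands at 406 CPM per kb, the next gene, TYMS, at 127, and CHAF1A, the lowest, at 2.44.

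ABBV-075 lowered 7 and raised 7 of the 45 genes relative to DMSO at an adjusted p of at most 0.05. These shares are near those of all genes tested, of which 19.6% were lower and 19.8% higher. None of the 45 also reached a log2 fold change of 1.5 in size, the threshold of the study for a differentially expressed mRNA, which 3.19% of all genes tested reached downward and 1.09% upward. The median log2 fold change over the 45 genes was 0.09, against 0.03 over all genes tested. This comparison and those of ABBV-744 and IFNg share the DMSO libraries. The genes that fell were the licensing genes MCM2, MCM3 and MCM5, GINS2 of helicase activation, the polymerase subunits POLD2 and POLE2, and TYMS of nucleotide supply. In bulk RNA, fewer cells in S phase and less mRNA in each cell cannot be told apart. The genes that rose were of several roles: ASF1B, RFC1, POLE, GINS4, ORC6, GMNN and PCNA. All 14 had groups that did not overlap, a description that rests on the values behind the calls. The share of such groups over all genes was not computed, here or for the later comparisons. All 14 were called in the same direction with the GC correction, which also called GINS1 lower and POLA2, CDT1, RPA1 and POLD1 higher. This made 8 lower and 11 higher genes, against 2692 and 2455 of all 11244 genes tested with the correction.

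In the MCM ring, MCM5 (chr22:35400134-35425431, plus strand, GRCh38) was at 146, 143 and 149 CPM in the DMSO libraries and at 65.0, 61.3 and 82.2 CPM in the ABBV-075 libraries (log2 fold change -1.09, SE 0.13, adjusted p = 9.4e-05). MCM2 (chr3:127598410-127622436, plus strand) was at 169, 167 and 159 CPM with DMSO and 97.0, 92.5 and 121 CPM with ABBV-075 (log2 fold change -0.69, SE 0.13, adjusted p = 0.00138). Each of the 3 treated libraries lay below each control for these genes, with replicate 3 the nearest to the controls in both. MCM3 fell less (log2 fold change -0.38, SE 0.12, adjusted p = 0.0254), while MCM4, MCM6 and MCM7 did not pass the test, at log2 fold changes of -0.10, -0.12 and -0.34. GINS2, a subunit of the GINS complex that joins the ring, fell (log2 fold change -0.51, SE 0.14, adjusted p = 0.015). GINS4, another subunit of the same complex, moved the other way, from 45.8, 46.1 and 44.3 CPM to 76.1, 75.9 and 82.5 CPM (log2 fold change 0.76, SE 0.13, adjusted p = 0.000678). The remaining subunits GINS1 and GINS3 stood at -0.23 and -0.18 and did not pass, though GINS1 was called lower with the GC correction (-0.41, adjusted p = 0.00216).

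Of the other genes that fell, POLE2, the second subunit of polymerase epsilon, was at 15.0, 16.6 and 19.5 CPM with DMSO and 10.4, 10.3 and 7.50 CPM with ABBV-075 (log2 fold change -0.88, SE 0.21, adjusted p = 0.00583). Its partner POLE, the catalytic subunit, rose from 29.7, 24.6 and 26.7 to 41.7, 56.4 and 42.3 CPM (log2 fold change 0.77, SE 0.16, adjusted p = 0.00292). The 2 subunits of the same polymerase thus moved in opposite directions, POLE2 on few counts. TYMS was at 202, 198 and 213 CPM with DMSO and 125, 144 and 155 CPM with ABBV-075 (log2 fold change -0.55, SE 0.12, adjusted p = 0.00288), whereas RRM1 and RRM2 did not pass (-0.08 and 0.24). POLD2 fell by 0.45 on the log2 scale (SE 0.12, adjusted p = 0.0106). The treated libraries lay below the controls for these genes that fell.

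ASF1B, a chaperone that carries new histones H3 and H4 to the fork, had the largest rise of the 45 genes. It lies at chr19:14119512-14136613, minus strand, and was at 31.8, 29.7 and 31.2 CPM with DMSO and 66.9, 92.0 and 101 CPM with ABBV-075 (log2 fold change 1.46, SE 0.17, adjusted p = 5.46e-05). Every treated library was above every control, with replicate 1 the lowest of the treated. ASF1A, the paralog, did not pass, at a log2 fold change of 0.25. RFC1, the largest subunit of the clamp loader, was at 38.8, 46.3 and 43.1 CPM with DMSO and 100.2, 79.1 and 50.7 CPM with ABBV-075 (log2 fold change 0.82, SE 0.20, adjusted p = 0.00732). Its treated replicates were far apart, and replicate 3, the one that stood apart on GC content, was the nearest to the controls. GMNN (0.50 ± 0.14, adjusted p = 0.0132), ORC6 (0.59 ± 0.14, adjusted p = 0.00628), a subunit of the origin recognition complex, and PCNA (0.34 ± 0.10, adjusted p = 0.0196) rose by less, given here as log2 fold change ± SE. Without DMSO replicate 1 or ABBV-075 replicate 2 only 4 genes were called lower, and without ABBV-075 replicate 3 the number called higher was 12. In every fit that left out 1 library, MCM5, POLE2, MCM2 and TYMS stayed called lower, and ORC6, GINS4, POLE, RFC1 and ASF1B higher.

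**Figure D2:**
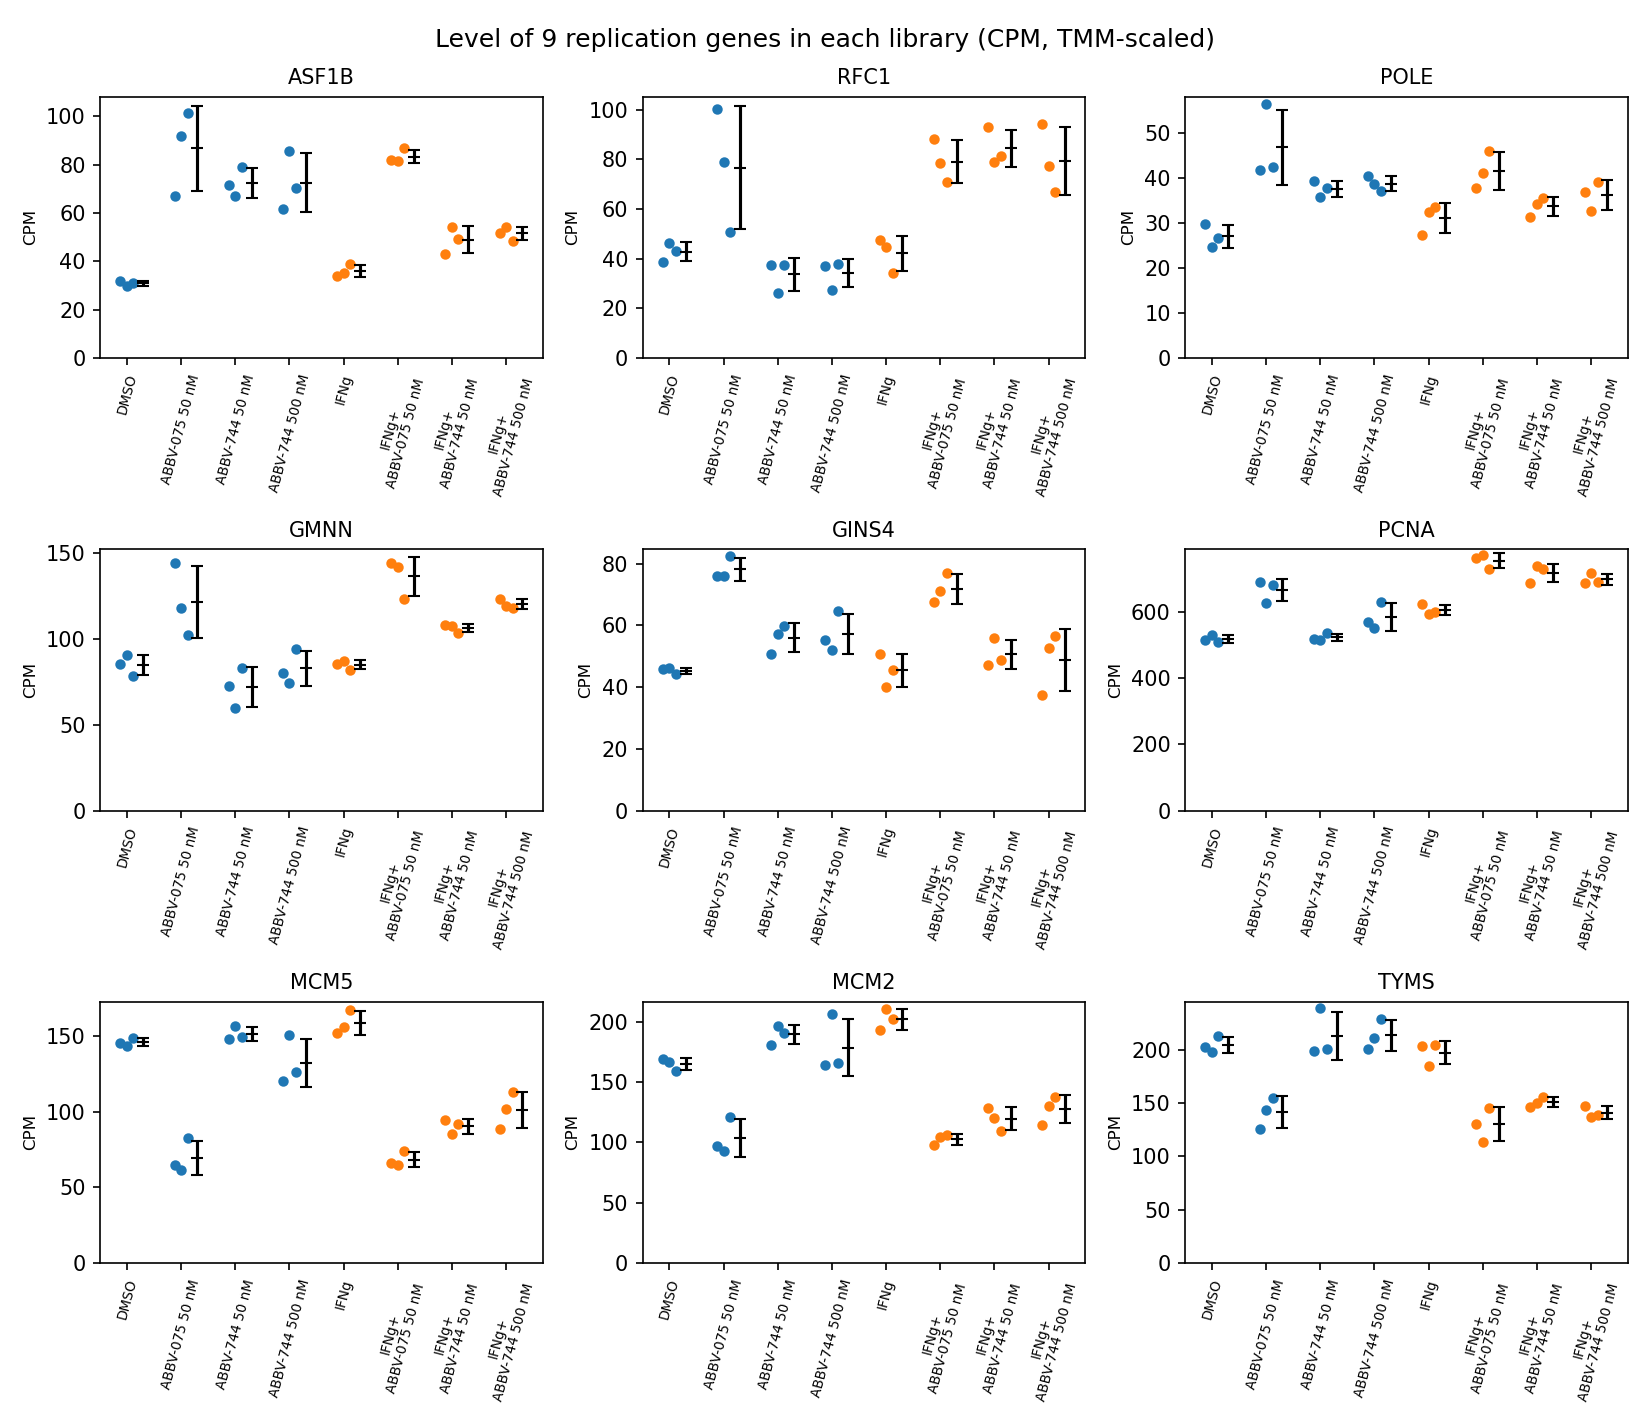
Level in CPM of 9 replication genes in each of the 24 libraries (points, orange with IFNg and blue without) with the mean and SD of each group of 3 beside them. MCM5 falls from about 146 CPM with DMSO to 69.5 with ABBV-075 and ASF1B rises from 30.9 to 86.7, while MCM5 with ABBV-744 alone averages 151 at 50 nM and 132 at 500 nM.

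ABBV-744 alone was called to change few of these genes. At 50 nM 4 genes were called lower and 4 higher, against 10.1% and 8.81% of all genes tested, and at 500 nM 0 lower and 5 higher, against 7.8% and 7.48%. By DESeq2 also 0 were lower at 500 nM, while 4 genes were lower at an unadjusted p under 0.05 in edgeR (RFC3, MCM6, RFC1 and POLA1). With the scaling to library size alone, which moved the median of all genes at 50 nM from 0.0006 to -0.10, 4 were lower and 2 higher at 50 nM. ASF1B rose at both doses, from 31.8, 29.7 and 31.2 CPM with DMSO to 71.4, 66.8 and 78.9 CPM at 50 nM (log2 fold change 1.24, SE 0.12, adjusted p = 1.94e-07) and 61.5, 85.7 and 70.3 CPM at 500 nM (log2 fold change 1.23, SE 0.13, adjusted p = 7.49e-08). POLA2, the regulatory subunit of polymerase alpha, was at 49.0, 51.4 and 44.3 CPM with DMSO, 71.1, 77.8 and 73.5 CPM at 50 nM (log2 fold change 0.63, SE 0.12, adjusted p = 0.000589) and 64.1, 74.2 and 78.4 CPM at 500 nM (log2 fold change 0.59, SE 0.12, adjusted p = 0.000915). For these genes every treated library was above every control. ORC6 and POLE also rose at both doses, with log2 fold changes of 0.38 and 0.50 at 50 nM and 0.64 and 0.53 at 500 nM, and RRM2 passed at 500 nM (log2 fold change 0.41, SE 0.08, adjusted p = 0.000944). MCM5 stood at 148, 156 and 149 CPM at 50 nM, with 1 library within the range of the controls and the others above it, and MCM2 at 181, 197 and 191 CPM, all above the controls, and neither passed the test (log2 fold changes 0.06 and 0.21).

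The 4 genes called lower with ABBV-744 at 50 nM were POLA1, the catalytic subunit of polymerase alpha (-0.50 ± 0.16, adjusted p = 0.0317), RFC3 (-0.47 ± 0.12, adjusted p = 0.00975), MCM6 (-0.44 ± 0.16, adjusted p = 0.0499) and ASF1A (-0.37 ± 0.13, adjusted p = 0.0449). All 4 have transcripts of low GC content, between 35.4% and 43.2%, and with the GC correction none of them was called, ASF1A having a log2 fold change of 0.037. POLE at 50 nM was not called with the correction either (0.31, adjusted p = 0.121), while ASF1B, POLA2 and ORC6 were, and RRM2 and GINS4 were added as higher. The number called lower at 50 nM was 0 without DMSO replicate 2 or replicate 3, 2 without DMSO replicate 1 or ABBV-744 replicate 2 and 1 without its replicate 3, and the number called higher was 2 without DMSO replicate 2, DMSO replicate 3 or ABBV-744 replicate 3. ASF1B and POLA2 were called in every one of these fits. At 500 nM the number higher was 8 without its replicate 1 or replicate 2, and all 5 calls were kept with the GC correction, which added PCNA and GINS4 as higher and MCM5 as lower (-0.26, adjusted p = 0.00893, against -0.14 without it).

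IFNg alone changed 1 of the 45 genes. MCM2 was at 169, 167 and 159 CPM with DMSO and 193, 211 and 202 CPM with IFNg (log2 fold change 0.29, SE 0.08, adjusted p = 0.0264), and the groups did not overlap. Of all genes tested 0.695% were lower and 2.76% higher. No gene was lower by edgeR, at an unadjusted p under 0.05 or by DESeq2, and 6 were higher at an unadjusted p under 0.05 in edgeR and 2 by DESeq2. The call on MCM2 was lost without DMSO replicate 2, DMSO replicate 3, IFNg replicate 2 or IFNg replicate 3, with the scaling to library size alone, with all 24 libraries in the fit and with the replicate number as a block. It was kept with the GC correction (0.22, adjusted p = 0.0386), which also called PCNA higher (0.28, adjusted p = 0.000601). Among the other 44 genes the log2 fold changes lay between -0.25 and 0.39.

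**Figure D3:**
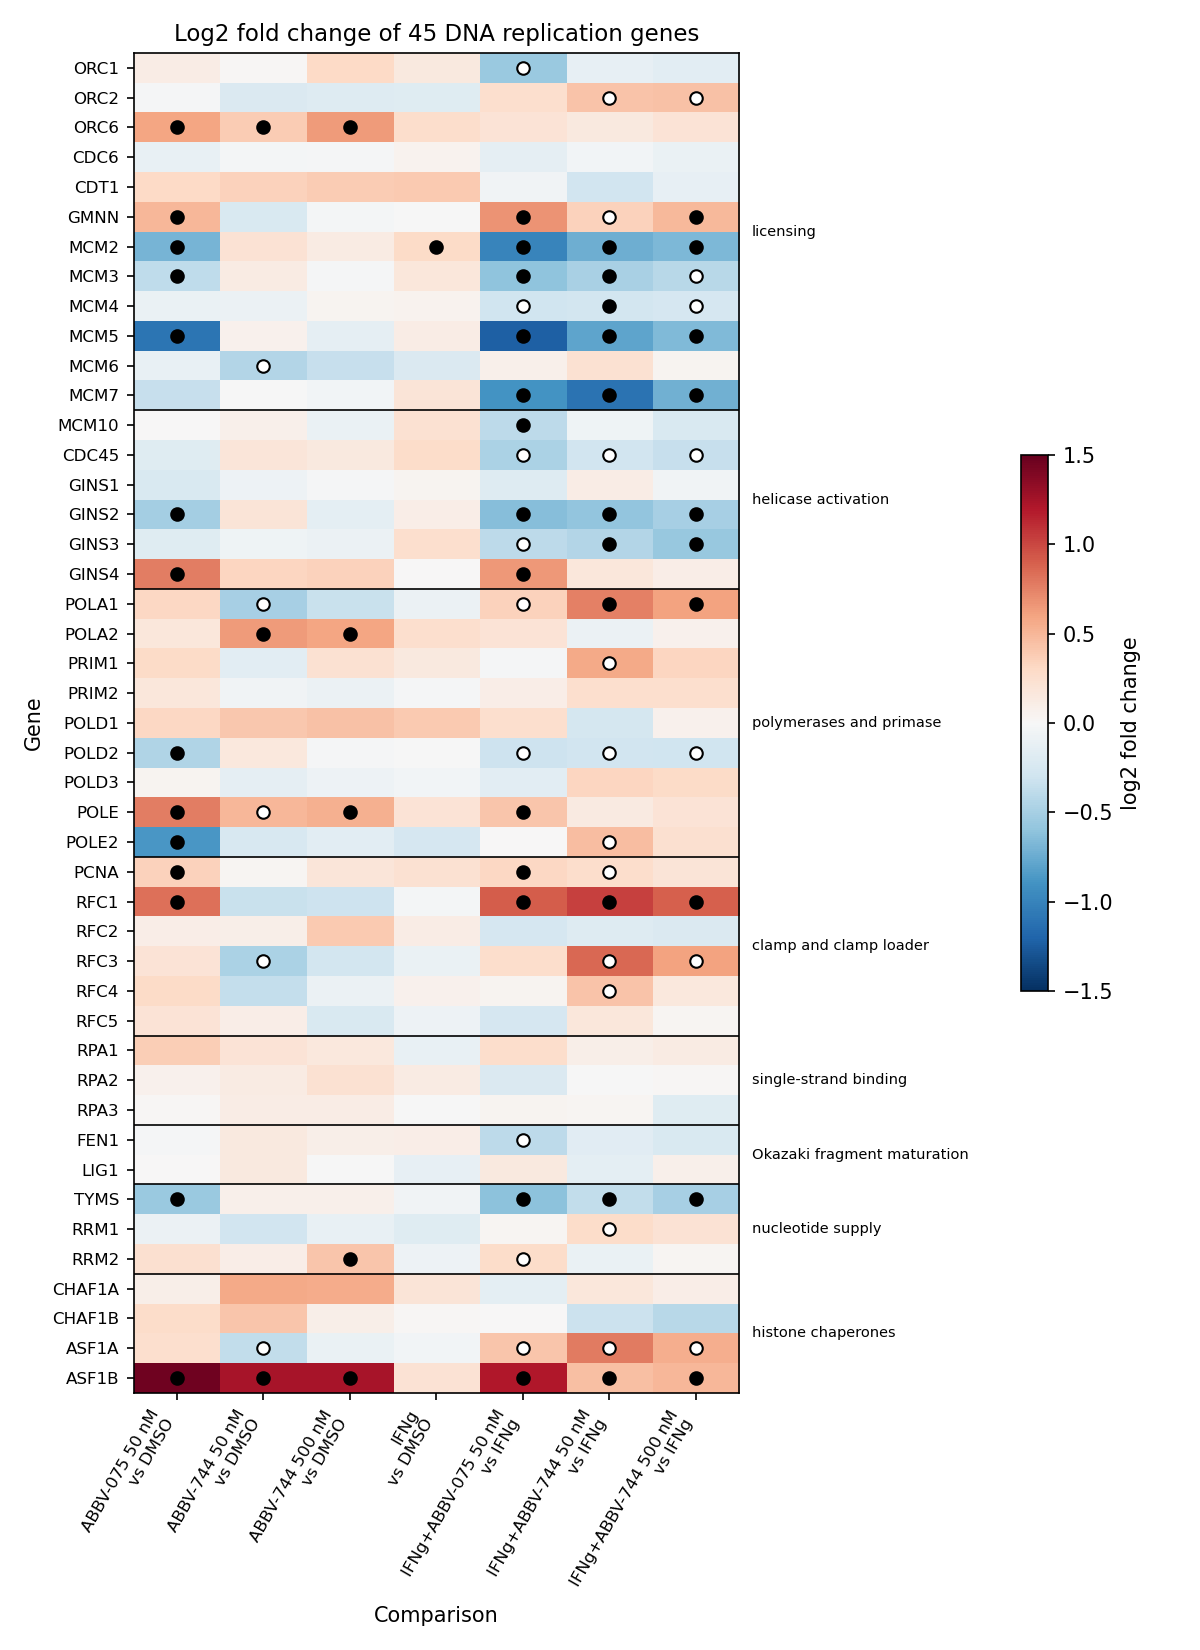
Log2 fold change of each of the 45 replication genes (rows, grouped by role) in the 7 comparisons with DMSO or IFNg (columns), on a colour scale from -1.5 to 1.5. Black dots mark genes called at an adjusted p of at most 0.05 that were also called in the same direction with the GC correction, and white dots those that were not. ASF1B stands at 1.46 with ABBV-075 and MCM5 at -1.09, the extremes of that column.

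In cells also given IFNg, ABBV-075 lowered 13 and raised 9 of the 45 genes relative to IFNg alone, against 28.4% lower and 28.2% higher of all genes tested. Licensing genes, 12 of the 45, made up 6 of the 13, and genes of helicase activation, 6 of the 45, made up 4. Whether these roles were called more often than others was not tested. MCM5 was at 152, 156 and 167 CPM with IFNg and 66.2, 64.9 and 73.7 CPM with IFNg plus ABBV-075 (log2 fold change -1.22, SE 0.10, adjusted p = 1.47e-12). MCM2 was at 193, 211 and 202 CPM with IFNg against 97.5, 104 and 106 CPM with both (log2 fold change -0.99, SE 0.10, adjusted p = 4.59e-11), and MCM7 at 82.5, 82.8 and 94.1 CPM against 44.9, 44.5 and 50.8 CPM (log2 fold change -0.90, SE 0.12, adjusted p = 3.94e-08). In all 3 genes every library with the inhibitor was below every library without it. The other calls among the lower genes, with their log2 fold changes, were GINS2 (-0.64), TYMS (-0.61), MCM3 (-0.61), ORC1 (-0.56), CDC45 (-0.47), FEN1 (-0.40), GINS3 (-0.40), MCM10 (-0.39), POLD2 (-0.31) and MCM4 (-0.30). CDC45 is the helicase cofactor, MCM10 helps to start its movement and ORC1 binds origins. The groups overlapped for ORC1 only.

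The 9 genes that rose with ABBV-075 in the presence of IFNg were led by ASF1B, at 34.0, 35.4 and 38.8 CPM with IFNg and 81.9, 81.4 and 86.6 CPM with both (log2 fold change 1.20, SE 0.12, adjusted p = 1.02e-10). RFC1 was at 47.7, 44.5 and 34.3 CPM against 88.1, 78.4 and 70.7 CPM (log2 fold change 0.90, SE 0.13, adjusted p = 1.97e-07) and GMNN at 85.2, 87.2 and 82.1 CPM against 144, 142 and 123 CPM (log2 fold change 0.68, SE 0.10, adjusted p = 7.3e-07). The groups were apart in each. GINS4, ASF1A, POLE, POLA1, PCNA and RRM2 followed, at 0.65, 0.42, 0.41, 0.35, 0.31 and 0.27. With the GC correction 7 of the 13 lower genes (MCM5, MCM2, MCM7, GINS2, TYMS, MCM3 and MCM10) and 6 of the 9 higher genes were called in the same direction. ASF1A turned, to a log2 fold change of -0.38, and was called lower. The correction added PRIM1, RFC3, POLE2 and GINS1 as lower and POLA2, ORC6, RPA1, LIG1 and POLD1 as higher.

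ABBV-744 lowered 10 and raised 12 of the 45 genes at 50 nM when added to IFNg, against 24.3% lower and 27.4% higher of all genes tested. At 500 nM it lowered 10 and raised 7, against 22.8% and 22.9%. Both comparisons share the IFNg libraries. The genes that fell at 50 nM were MCM2, MCM3, MCM4, MCM5, MCM7, GINS2, GINS3, CDC45, POLD2 and TYMS, and the list at 500 nM held these names too. MCM7 was at 82.5, 82.8 and 94.1 CPM with IFNg, 45.5, 37.5 and 35.0 CPM with ABBV-744 at 50 nM added (log2 fold change -1.11, SE 0.11, adjusted p = 8.73e-10) and 62.8, 50.0 and 46.3 CPM at 500 nM (log2 fold change -0.72, SE 0.12, adjusted p = 7.91e-06). MCM5 was at 94.6, 84.9 and 91.6 CPM at 50 nM (log2 fold change -0.79, SE 0.09, adjusted p = 5.98e-09) and 88.7, 102 and 113 CPM at 500 nM (log2 fold change -0.66, SE 0.10, adjusted p = 4.1e-06). MCM2 was at 129, 120.4 and 109 CPM (log2 fold change -0.74, SE 0.09, adjusted p = 1.34e-08) and 115, 130.3 and 138 CPM (log2 fold change -0.68, SE 0.10, adjusted p = 1.08e-06). For these 3 genes every library with ABBV-744 lay below every library with IFNg alone. GINS2 fell by 0.59 on the log2 scale at 50 nM (SE 0.10, adjusted p = 1e-05) and by 0.50 at 500 nM (SE 0.11, adjusted p = 0.000293). MCM6, the remaining member of the ring, stood at 0.23 at 50 nM and 0.04 at 500 nM and did not pass.

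RFC1 had the largest rise in these comparisons, from 47.7, 44.5 and 34.3 CPM with IFNg to 92.9, 79.0 and 81.3 CPM with ABBV-744 at 50 nM added (log2 fold change 1.02, SE 0.12, adjusted p = 1.22e-08) and 94.0, 77.3 and 66.9 CPM at 500 nM (log2 fold change 0.89, SE 0.13, adjusted p = 2.06e-06). RFC3, a small subunit of the same loader, was at 65.1, 62.5 and 55.8 CPM with IFNg, 101, 105 and 122 CPM at 50 nM (log2 fold change 0.86, SE 0.11, adjusted p = 2.87e-08) and 101, 90.6 and 90.9 CPM at 500 nM (log2 fold change 0.61, SE 0.11, adjusted p = 3.72e-05). POLA1 was at 36.2, 41.2 and 39.1 CPM with IFNg, 65.5, 64.0 and 64.3 CPM at 50 nM (log2 fold change 0.75, SE 0.11, adjusted p = 1.15e-06) and 61.5, 64.5 and 52.2 CPM at 500 nM (log2 fold change 0.60, SE 0.13, adjusted p = 0.000232). The groups did not overlap for these genes. Among all the calls of both doses, the groups overlapped for RRM1 at 50 nM and MCM4 at 500 nM. At 50 nM the other genes called higher were ASF1A (0.78), PRIM1 (0.57), POLE2 (0.46), ASF1B (0.45), ORC2 (0.43), RFC4 (0.42), GMNN (0.35), RRM1 (0.28) and PCNA (0.26), and at 500 nM ASF1A (0.55), ASF1B (0.50), GMNN (0.49) and ORC2 (0.43). Genes of low GC content were prominent among them, with medians of 42.1% and 41.6%. With the GC correction 8 of the 10 lower genes but 3 of the 12 higher genes (ASF1B, POLA1 and RFC1) were called in the same direction at 50 nM, and 5 of the 12 changed sign. At 500 nM 6 of the 10 lower and 4 of the 7 higher genes (GMNN, ASF1B, POLA1 and RFC1) were called in the same direction. The correction added RRM2 and GINS1 as lower at both doses and POLE as higher at both, with POLA2 at 500 nM. ASF1A, at 0.78 and 0.55 without the correction, had -0.26 and -0.31 with it, and was then called lower at 500 nM.

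**Figure D4:**
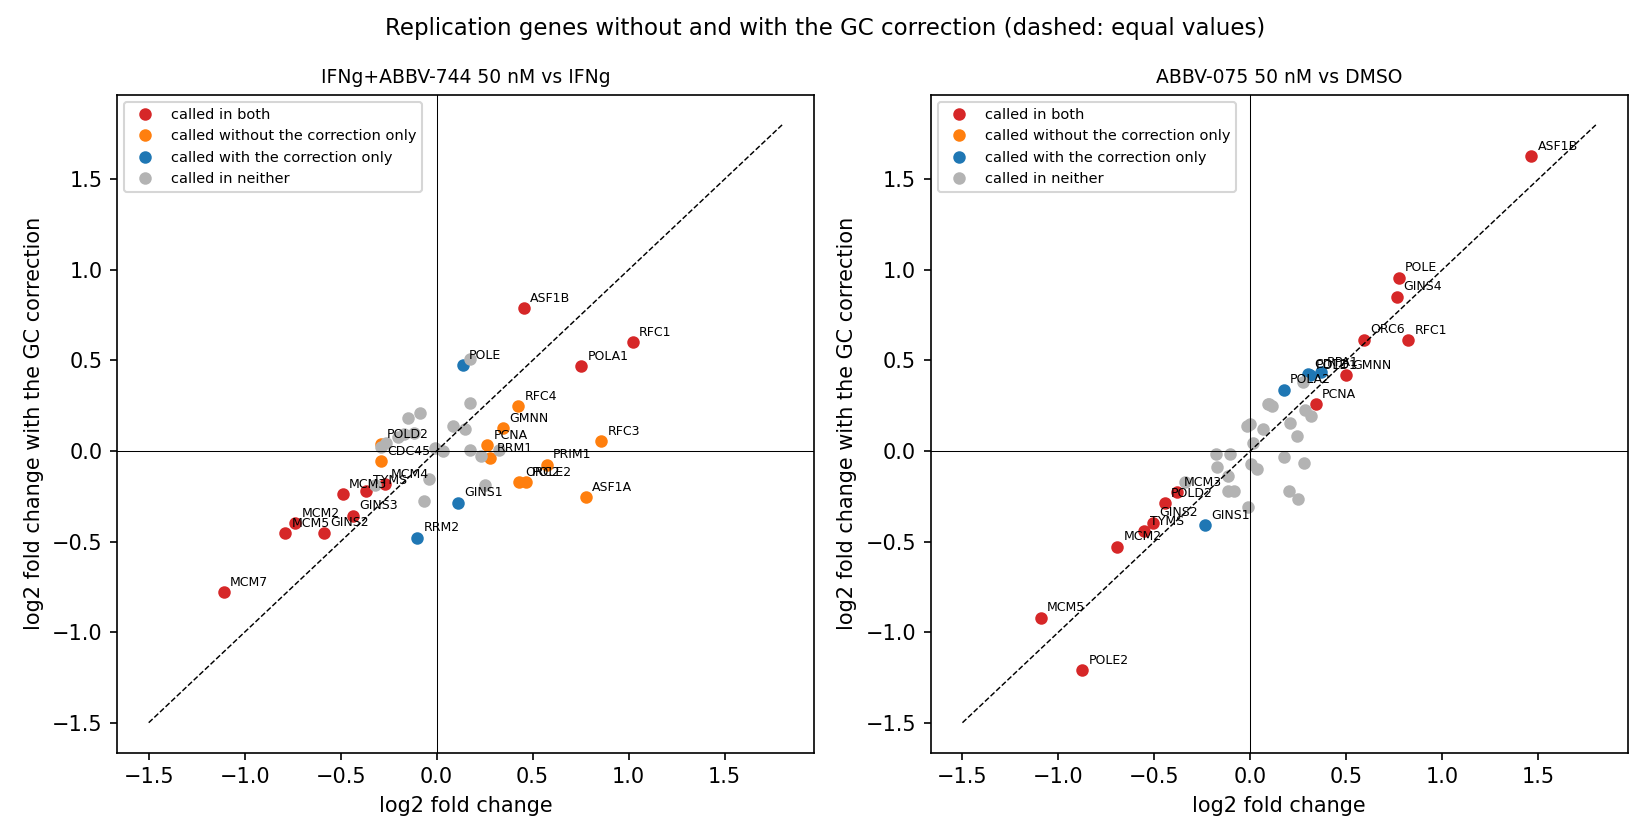
Log2 fold change of the replication genes without (horizontal axis) and with (vertical axis) the correction for GC content, for ABBV-744 at 50 nM added to IFNg and for ABBV-075 against DMSO, with a dashed line where both are equal and colours for the calls. Genes far from the line are those whose value moves with the correction: with ABBV-744 at 50 nM added to IFNg, ASF1A moves from 0.78 to -0.26, while MCM5 and RFC1 keep their sides.

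The inhibitors were set against each other at the one dose they share, 50 nM, in 2 pairs of groups, and the doses of ABBV-744 were set against each other in 1 more. Without IFNg, 7 genes were lower and 8 higher with ABBV-075 than with ABBV-744 (19.4% and 21.4% of all genes tested). MCM5 was lower with ABBV-075 (65.0, 61.3 and 82.2 CPM against 148, 156 and 149 CPM, log2 fold change -1.13, SE 0.14, adjusted p = 0.000544), as was MCM2 (97.0, 92.5 and 121 against 181, 197 and 191 CPM, log2 fold change -0.88, SE 0.13, adjusted p = 0.00135). The groups were apart for both. GINS2, TYMS, POLD2, MCM3 and POLA2 were also lower, at -0.68, -0.60, -0.58, -0.48 and -0.43. RFC1 (1.18 ± 0.24, adjusted p = 0.0046), POLA1 (0.84 ± 0.23, adjusted p = 0.0168) and GMNN (0.75 ± 0.17, adjusted p = 0.00658) were higher with ABBV-075, together with RFC3, RFC4, ASF1A, GINS4 and PCNA. ASF1B, raised by each inhibitor, was not called between them, at 0.25 with a 95% interval of -0.12 to 0.61, but it was called higher with ABBV-075 after the GC correction (0.58, adjusted p = 0.00194). With the GC correction MCM5, MCM2, GINS2 and TYMS were still called lower and GINS4, RFC4, GMNN, POLA1 and RFC1 higher, and POLE2 and GINS1 were added as lower and POLE and CDT1 as higher. The number higher was 3 without ABBV-744 replicate 2 and 5 without its replicate 1, its replicate 3 or ABBV-075 replicate 2. These groups differ in compound and possibly in time.

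With IFNg present, 7 genes were lower and 7 higher with ABBV-075 than with ABBV-744 at 50 nM (17% and 16.7% of all genes tested). After correction for GC content 3 of the 7 lower and 5 of the 7 higher calls were kept, and FEN1 and MCM2 were added as lower and RPA1 and PCNA as higher. With the scaling to library size alone the split was 16 lower and 5 higher, a scaling that moved the median of all genes to -0.12 from 0.01. ASF1B was higher with ABBV-075 (81.9, 81.4 and 86.6 CPM against 43.1, 54.1 and 49.4 CPM, log2 fold change 0.82, SE 0.11, adjusted p = 9.47e-08), and POLD1, the catalytic subunit of polymerase delta, too (0.59 ± 0.15, adjusted p = 0.00167), a call lost with the GC correction (0.28, adjusted p = 0.0862). RFC3 (-0.51 ± 0.10, adjusted p = 0.000146) and PRIM1, the catalytic subunit of primase (-0.51 ± 0.14, adjusted p = 0.00439), were lower. MCM5 was lower with ABBV-075 here as well (-0.36 ± 0.10, adjusted p = 0.0054). MCM2 was at -0.17 with a 95% interval of -0.37 to 0.02 and was called lower with the GC correction (-0.33, adjusted p = 0.000764). Without IFNg plus ABBV-075 replicate 2, 3 genes were called lower.

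Raising ABBV-744 from 50 to 500 nM without IFNg changed none of the 45 genes by edgeR, with or without the GC correction, or by DESeq2 at an adjusted p of at most 0.05, against 0.0274% lower and 0% higher of all genes tested. With the replicate number as a block 1 gene was lower and 1 higher, against 140 and 180 of all 10967 genes tested. At an unadjusted p under 0.05 there were 3 genes without the block, RRM2 (0.31), GINS2 (-0.34) and PRIM1 (0.39). The 95% intervals of the differences reached from -0.77 to 0.75 over the 45 genes. For ASF1B the interval was -0.29 to 0.28 and for MCM5 -0.44 to 0.04, so the data allow differences up to these bounds between the doses.

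Whether the response to an inhibitor depended on IFNg was tested with the interaction term, the log2 fold change with IFNg minus that without it. For ABBV-075 none of the 45 genes passed, by edgeR with or without the GC correction or by DESeq2, against 0.0173% of all genes tested in each direction, with 5 genes at an unadjusted p under 0.05 (POLE2, MCM7, FEN1, ORC1 and MCM10). MCM5 had an interaction of -0.15 with a 95% interval of -0.49 to 0.19 and ASF1B one of -0.28 with -0.70 to 0.14. Without ABBV-075 replicate 1 a single gene was called lower, and over all 11693 genes tested 117 were lower and 83 higher. For ABBV-744 at 50 nM 14 genes were lower and 11 higher with IFNg than without it, against 26.5% and 25% of all genes tested, and at 500 nM 10 were lower and 6 higher, against 15% and 18.5%. The splits under the scaling to library size alone were 10 and 14 at 50 nM and 5 and 7 at 500 nM, and the main scaling left the median of all genes at -0.14 and -0.09.

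MCM7 had an interaction of -1.13 ± 0.17, adjusted p = 3.35e-06 at 50 nM and MCM2 one of -0.98 ± 0.12, adjusted p = 1.66e-07, so both stood lower against their controls with IFNg present than without it. MCM5 had -0.88 ± 0.12, adjusted p = 9.62e-07. Their levels give the pattern directly: with ABBV-744 alone MCM2 was at 181, 197 and 191 CPM, above the DMSO libraries, and with IFNg added to it at 129, 120.4 and 109 CPM. ASF1B rose less with IFNg present, with an interaction of -0.82 ± 0.17, adjusted p = 0.000235 at 50 nM and -0.71 ± 0.18, adjusted p = 0.00289 at 500 nM. RFC1 (1.33 ± 0.19, adjusted p = 2.38e-06), RFC3 (1.30 ± 0.16, adjusted p = 2.28e-07), POLA1 (1.22 ± 0.20, adjusted p = 1.2e-05) and ASF1A (1.12 ± 0.17, adjusted p = 5.94e-06) had interactions in the other direction, and of these POLA1, RFC3 and ASF1A had been called lower with ABBV-744 alone and higher when it was added to IFNg. With the GC correction MCM7, MCM2, MCM5 and GINS2 among the 14 and RFC1 and POLA1 among the 11 were called in the same direction at 50 nM, and MCM2, TYMS, RRM2, GMNN, POLA1 and RFC1 at 500 nM, while GINS1 was added as lower at both doses, RRM2 at 50 nM and PRIM1 at 500 nM. The call on ASF1B was lost, with values of -0.27, adjusted p = 0.257 at 50 nM and -0.32, adjusted p = 0.163 at 500 nM. At 500 nM the number called lower was 6 without DMSO replicate 2, 4 without DMSO replicate 3 and 4 without ABBV-744 replicate 3.

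Changes in several comparisons went with the GC content of the transcripts. Over the 45 genes, the Pearson correlation of log2 fold change with GC content was 0.67 with ABBV-744 at 50 nM and -0.64 when it was added to IFNg, and over all genes tested 0.55 and -0.65. At 500 nM it was 0.49 and -0.48 over the 45 genes, and 0.31 and -0.51 over all genes tested. With IFNg alone it was 0.60 over the 45 genes and 0.16 over all genes tested. With ABBV-075 it was -0.07 over the 45 genes and -0.28 over all genes tested without IFNg, and -0.27 and -0.33 with IFNg. Genes are not independent replicates and no test was made of these values. The multimapping share of these libraries, given above, moved in the same groups, and the part of either in the changes was not tested.

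**Figure D5:**
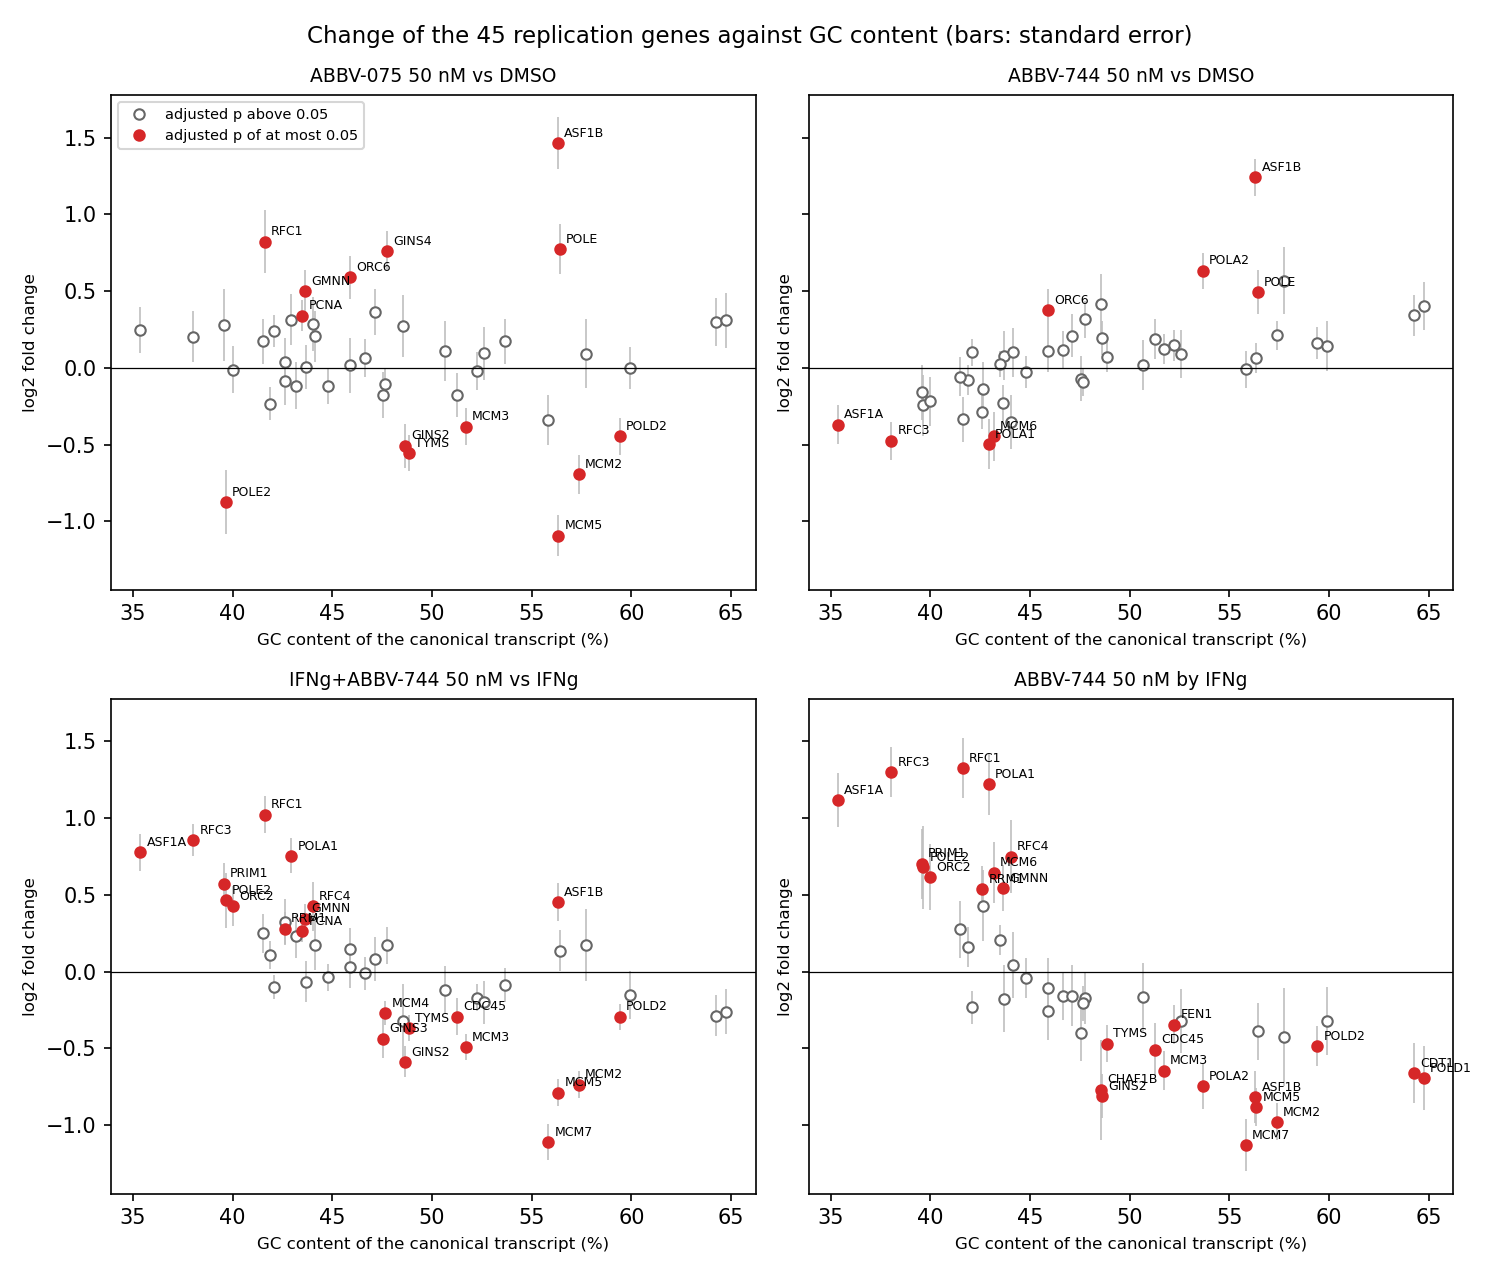
Log2 fold change of the 45 replication genes against the GC content of the canonical transcript in 4 comparisons, with the SE as bars and called genes filled and named. With ABBV-744 at 50 nM the points rise with GC content (r = 0.67 over the replication genes) and with the same dose added to IFNg they fall (r = -0.64).

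Across the 7 comparisons with DMSO or IFNg, which share those control libraries, 31 of the 45 genes were called at least once and 14 in none. The share of all genes tested that were called at least once was not computed, so these numbers cannot be set against it. The 14 were CDC6, CDT1, GINS1, PRIM2, POLD1, POLD3, RFC2, RFC5, RPA1, RPA2, RPA3, LIG1, CHAF1A and CHAF1B, and include the 3 subunits of RPA, the single-strand binding protein, and the CAF-1 subunits CHAF1A and CHAF1B. Of these, CDT1, GINS1, POLD1, RPA1 and LIG1 were called in at least 1 of the 7 comparisons with the GC correction. RPA1 ranged over the groups from a mean of 30.1 to 42.4 CPM, RPA2 from 57.0 to 70.4, and LIG1, the DNA ligase of the fork, from 20.1 to 26.9 CPM. The median log2 fold change over the 45 genes lay near that of all genes tested, at 0.08 against 0.0006 with ABBV-744 at 50 nM, -0.0099 against 0.0016 at 500 nM, 0.06 against -0.0023 with IFNg, and, added to IFNg, 0.0027 against -0.003 with ABBV-075, 0.03 against -0.02 with ABBV-744 at 50 nM and 0.04 against -0.03 at 500 nM. A call missed here is not evidence that a gene stayed the same. MCM2, POLA1, POLE2, RFC3 and ASF1A were called in opposite directions in different comparisons. After the GC correction this held for MCM2 alone of these 5, and RRM2 was called higher with ABBV-744 alone and lower when it was added to IFNg. The CPM of the 45 genes summed to means of 3739 with DMSO to 4019 with ABBV-744 at 500 nM.

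Other genes of the pathway and the cell cycle, taken from lists outside the 45, were read beside them. Of 44 further replication genes, 2 were lower and 21 higher with ABBV-075, 5 and 5 with ABBV-744 at 50 nM, 1 and 8 at 500 nM, 0 and 1 with IFNg, and 3 and 28, 5 and 25, and 2 and 22 when ABBV-075 and ABBV-744 at 50 and 500 nM were added to IFNg. Of all genes tested, 19.6% were lower and 19.8% higher with ABBV-075. The shares were 10.1% and 8.81% with ABBV-744 at 50 nM, 7.8% and 7.48% at 500 nM, and 0.695% and 2.76% with IFNg. Added to IFNg, ABBV-075 had 28.4% and 28.2%, and ABBV-744 24.3% and 27.4% at 50 nM and 22.8% and 22.9% at 500 nM. After the GC correction the numbers for the 44 genes were 3 and 19, 1 and 3, 2 and 9, 0 and 1, 5 and 26, 4 and 15, and 3 and 22 in the same order. Over all genes tested the corrected numbers were 2692 and 2455 of 11244 with ABBV-075. They were 596 and 597 of 11116 with ABBV-744 at 50 nM, 1090 and 955 of 11124 at 500 nM, and 123 and 381 of 11217 with IFNg. Added to IFNg, ABBV-075 had 3241 and 2957 of 11187. ABBV-744 had 1947 and 1718 of 11150 at 50 nM and 2107 and 1890 of 11091 at 500 nM. SSRP1, a subunit of the histone chaperone FACT, fell with ABBV-075 (-0.83 ± 0.14, adjusted p = 0.000879). CLSPN, the fork protein claspin (1.11 ± 0.20, adjusted p = 0.00115), ATAD5, which unloads PCNA (1.16 ± 0.28, adjusted p = 0.0062), and RRM2B, the p53-inducible subunit of ribonucleotide reductase (1.45 ± 0.24, adjusted p = 0.000738), rose. With ABBV-744 at 50 nM added to IFNg, TOP2A, the DNA topoisomerase of dividing cells, rose most (1.59 ± 0.09, adjusted p = 3.68e-15). SAMHD1, a dNTP hydrolase induced by interferons, was the one that rose with IFNg alone (1.26 ± 0.09, adjusted p = 1.72e-13).

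The lists that follow can be set against the same numbers over all genes tested. Of 28 genes of G1/S control that were tested, 11 were lower and 4 higher with ABBV-075, among them E2F2 (-0.88 ± 0.22, adjusted p = 0.00798) and MYC (-0.73 ± 0.13, adjusted p = 0.000894) on the lower side and CCNE2, a cyclin E (0.86 ± 0.31, adjusted p = 0.0448), on the higher. With ABBV-744 at 50 nM 4 were lower and 2 higher, at 500 nM 3 and 1, with IFNg 0 and 0, and with the inhibitors added to IFNg 12 and 4, 6 and 6, and 6 and 5. The GC correction gave 11 and 3 with ABBV-075, 2 and 0, 4 and 0 and 0 and 0 with ABBV-744 at 50 and 500 nM and IFNg, and 11 and 5, 4 and 1, and 5 and 2 with the inhibitors added to IFNg. Of 35 mitosis genes, 4 were lower and 14 higher with ABBV-075, 5 and 1 with ABBV-744 at 50 nM, 0 and 4 at 500 nM, 0 and 0 with IFNg, and 8 and 16, 8 and 17, and 7 and 16 with the inhibitors added to IFNg in the same order. These were 4 and 12, 2 and 1, 1 and 7, 0 and 0, 5 and 18, 7 and 13, and 8 and 15 after the GC correction. PLK1, a mitotic kinase, fell (-1.04 ± 0.14, adjusted p = 0.000192), and ASPM, a spindle pole protein, rose (1.83 ± 0.27, adjusted p = 0.000316). Of 47 replication-dependent histone genes tested, whose mRNAs rise in S phase, 6 were lower and 14 higher with ABBV-075 (6 and 26 with the GC correction), and of 46 tested, 26 were lower and 1 higher with ABBV-744 at 50 nM added to IFNg (9 and 8 with the correction). They were 1 and 14 of 47 with ABBV-744 at 50 nM (5 and 7 with the correction), 2 and 22 of 47 at 500 nM (5 and 18), 0 and 4 of 48 with IFNg (0 and 4), 10 and 16 of 47 with ABBV-075 added to IFNg (7 and 25) and 12 and 11 of 47 with ABBV-744 at 500 nM added to it (7 and 26). The histone genes are near-identical copies, so their counts are uncertain where reads mapped to several places.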

How the data were processed

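Total RNA from HepG2 cells was depleted of rRNA and sequenced from directional libraries. According to the submitters' notes and the methods, reads were handled with CASAVA 1.8.2, trimmed with Trimmomatic 0.33 and aligned with STAR 2.7.1 to hg38, and the authors deposited the gene counts that STAR writes for each library, as whole-number counts that were not normalized. The column of counts on the strand that held 98.3 to 98.5% of the stranded gene counts was used, and reads that map to several places are not in it, so genes with near-identical copies may be undercounted. The annotation used for counting is not given in the sources used here.

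The 45 genes and the lists beside them were chosen with earlier results of these data known. Groups and replicate numbers came from the labels. Levels are CPM with TMM scaling over all 24 libraries, and CPM per kb uses the length of the GENCODE v44 canonical transcript, with symbols paired for 24535 of 26475 rows. Each comparison was fitted over all genes of its groups with edgeR 4.0.16 in R 4.3.3 (filterByExpr, TMM, quasi-likelihood test, two-sided), with Benjamini-Hochberg adjustment over all genes tested. A gene was called at an adjusted p of at most 0.05. Any of the 45 genes could be named. Values per library are given for up to 4 called genes in each direction, by size of change, in the 7 comparisons with DMSO or IFNg, and for up to 2 in the others. The genes named from the other lists were up to 3 called genes in each direction, by size of change. SE is the size of the log2 fold change divided by the root of F. Intervals are 95% intervals from the same fit.

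The GC correction subtracted a lowess curve (span 0.3) of each library's log2 deviation on GC content, as offsets with a prior count of 2. The other alternatives were RLE scaling, scaling to library size, DESeq2 1.42.0, dropping the low-count filter, requiring 10 or more counts in each library, fitting all 24 libraries at once, the replicate number as a block, both strands together and leaving out each library. On simulated counts for ABBV-075 against DMSO, 191 of 200 changed genes (95.5%) and 7 of 11067 unchanged genes were called. For the interaction of ABBV-744 at 50 nM with IFNg these were 169 of 200 (84.5%) and 9 of 11218. With a simulated trend on GC content 1506 of 10951 unchanged genes were called, and 10 of 10951 with the correction. That trend was equal in all libraries of the treated group, and the changed genes were drawn without regard to GC content. It thus does not show how the correction acts where replicates differ or real changes go with GC content. The replicate numbers were checked for pairing: in no comparison did each pair of same-numbered libraries correlate above 0.1 in their deviations from the group means, so they were not treated as pairs. No library pair held identical counts.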

Additional observations from a re-analysis of the deposited data

Results flagged for a closer look

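The response of 25 replication genes to ABBV-744 at 50 nM differed between cells with and without IFNg, by the interaction term of the edgeR fit. The interaction was negative in 14 of the 45 genes and positive in 11, against 26.5% and 25% of all genes tested. Such calls were about as common over all genes, so they do not set these genes apart. With scaling to library size alone the split was 10 negative and 14 positive. The values here are the log2 fold change with IFNg minus that without it. Among the licensing and helicase genes the interaction was negative for MCM7 (-1.13), MCM2 (-0.98), MCM5 (-0.88), MCM3 (-0.64), GINS2 (-0.81), CDC45 (-0.51) and CDT1 (-0.66). It was negative too for the polymerase subunits POLA2 (-0.75), POLD1 (-0.69) and POLD2 (-0.48), for the chaperones ASF1B (-0.82) and CHAF1B (-0.77), and for TYMS (-0.47) and FEN1 (-0.35). It was positive for the clamp loader genes RFC1 (1.33), RFC3 (1.30) and RFC4 (0.75), for the polymerase and primase genes POLA1 (1.22), PRIM1 (0.70) and POLE2 (0.68), for the licensing genes MCM6 (0.65), ORC2 (0.61) and GMNN (0.54), and for ASF1A (1.12) and RRM1 (0.54).

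For ABBV-744 at 500 nM the response of 16 genes differed in the same way, 10 negative and 6 positive, against 15% and 18.5% of all genes tested. The interaction was negative for MCM2 (-0.77), MCM7 (-0.66), MCM5 (-0.51), MCM3 (-0.38) and CDC45 (-0.47), for ASF1B (-0.71), RFC2 (-0.58) and POLA2 (-0.50), and for the nucleotide supply genes TYMS (-0.55) and RRM2 (-0.36). It was positive for RFC1 (1.23), RFC3 (0.91) and POLA1 (0.95), and for ASF1A (0.67), ORC2 (0.65) and GMNN (0.53).

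Both interactions share the DMSO and IFNg libraries. Over the 45 genes the interaction had a Pearson correlation with GC content of -0.78 at 50 nM and -0.69 at 500 nM, and over all genes tested of -0.74 and -0.63, as a description across genes. After correction for GC content 6 of the 25 calls at 50 nM and 6 of the 16 at 500 nM were kept in the same direction. FEN1, POLD2, PRIM1, POLE2, ORC2 and ASF1A changed sign at 50 nM, and ASF1A at 500 nM. The part of the GC content in these differences was not tested further.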

How the results depend on the processing

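Of 159 calls on the 45 genes over the 13 comparisons, 157 were kept with RLE scaling and with at least 10 counts in every library, 155 with no filter on low counts, 154 with both strands together, 152 with the replicate block, 147 with all 24 libraries in the fit, 142 with scaling to library size, 131 with DESeq2 and 86 with the GC correction, and the others missed the threshold in the same direction except 20 that changed sign with the GC correction. Those with changed sign, with the corrected log2 value, were ASF1A with ABBV-744 at 50 nM (0.037), with the inhibitors added to IFNg (-0.38 for ABBV-075, -0.26 and -0.31 for ABBV-744 at 50 and 500 nM), between the compounds (-0.29) and in the interactions of ABBV-744 (-0.29 and -0.40). With ABBV-744 at 50 nM added to IFNg they were RRM1 (-0.037), PRIM1 (-0.075), POLE2 (-0.17), ORC2 (-0.17) and POLD2 (0.039), at 500 nM RFC3 (-0.036) and ORC2 (-0.027), between the compounds RFC3 (-0.054), and in the interaction at 50 nM FEN1 (0.068), PRIM1 (-0.20), POLE2 (-0.21), ORC2 (-0.22) and POLD2 (0.097). The cause was not tested.

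Counts of called genes moved by over 1.5 times as follows. With the GC correction 11 genes were higher with ABBV-075, 0 lower with ABBV-744 at 50 nM, 1 lower at 500 nM, 2 higher with IFNg and 4 higher with ABBV-744 at 50 nM added to IFNg, and the interactions had 6 lower and 2 higher at 50 nM and 5 lower and 3 higher at 500 nM. Over all genes tested the correction gave 2455 of 11244 higher with ABBV-075 and 381 of 11217 higher with IFNg. With ABBV-744 alone 596 of 11116 were lower at 50 nM and 1090 of 11124 at 500 nM. When ABBV-744 at 50 nM was added to IFNg, 1718 of 11150 were higher. The interactions had 1175 lower and 979 higher of 11451 at 50 nM, and 1002 and 802 of 11428 at 500 nM. With DESeq2 ABBV-744 at 50 nM had 1 lower and 2 higher, IFNg had 2 higher, and 3 were lower between the compounds with IFNg. With scaling to library size ABBV-744 at 50 nM had 2 higher, IFNg 0, the compounds with IFNg 16 lower and the interaction at 500 nM 5 lower. With all 24 libraries in the fit ABBV-744 at 50 nM had 2 lower and IFNg 0, and with both strands together IFNg had 2. The cause was not tested.

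The replicate numbers were not treated as pairs, and the labels do not say whether they are. With the replicate block, ABBV-744 at 50 nM had 2 lower, IFNg 0, ABBV-744 at 500 nM added to IFNg 11 higher, and the doses of ABBV-744 differed in 1 lower and 1 higher gene, with 140 and 180 over all genes. For those doses each library correlated best with its own number, at r of 0.25, 0.33 and 0.06, a hint from the data and not from the design.

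Leaving out 1 library gave 4 to 9 lower and 5 to 12 higher genes with ABBV-075, 0 to 3 and 2 to 6 with ABBV-744 at 50 nM, 0 and 4 to 8 at 500 nM, and 0 and 0 to 2 with IFNg. Added to IFNg, ABBV-075 gave 11 to 13 and 7 to 10, and ABBV-744 9 to 11 and 8 to 12 at 50 nM and 8 to 10 and 6 to 9 at 500 nM. Between the compounds it gave 5 to 8 and 3 to 10, with IFNg 3 to 8 and 5 to 9, and between the doses 0. The interactions gave 0 to 1 lower for ABBV-075, 11 to 15 and 9 to 11 for ABBV-744 at 50 nM, and 4 to 12 and 5 to 7 at 500 nM. Genes with few counts a library, such as CHAF1A (20 to 47), CHAF1B (28 to 69) and POLE2 (25 to 82), were measured least precisely.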
